A study of Homo sapiens with 6 samples.

Results

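The vascular endothelial growth factor (VEGF) family members examined here were 9 genes: the ligands VEGFA, VEGFB, VEGFC and PGF, the receptor tyrosine kinases FLT1, KDR and FLT4, and the co-receptors NRP1 and NRP2. They were chosen by symbol among 50229 symbols in the deposited table, from rows that hold an annotated transcript. Each symbol had 1 row, and no row held a second gene name. The cells were ARPE-19, a human line grown from retinal pigment epithelium and labelled wild type, kept for 72 h in high glucose (3 libraries) or in normal glucose (3 libraries). No glucose concentration is labelled, nor whether each library had a culture of its own, so p-values cover the spread among the sequenced libraries alone, and that spread could be technical.

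VEGF ligands are secreted dimers that drive the growth and leakiness of blood vessels. VEGFA binds FLT1 and KDR, VEGFB and PGF bind FLT1, and VEGFC binds FLT4 and KDR, while neuropilins assist these receptors and also bind class 3 semaphorins. The retinal pigment epithelium is a main source of VEGFA for the vessels of the choroid, and excess VEGFA is a drug target in diabetic macular oedema and in neovascular macular degeneration.

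Libraries held 81616741 to 87748820 counts. The third normal glucose library stood apart from the other two of its group, with a value of 107.1 on the second principal component (18.0% of the variance) against -44.0 and -35.2 for normal glucose libraries 1 and 2. Results on the members that change their call without it are given with and without it. Of 21 retinal pigment epithelium markers in the table, 2 had no count in any library and 14 passed the filter on low counts. KRT8, KRT18, OTX2, MITF and PMEL were among those detected. So were LRAT (means of 5.48 CPM in high glucose and 4.77 CPM in normal glucose) and RLBP1 (1.84 and 2.33 CPM). RDH5, in a locus with BLOC1S1, had 40.5 and 31.2 CPM. RPE65, the visual cycle isomerase, had a mean of 0.0152 CPM in high glucose and 0.0117 CPM in normal glucose, and RGR and CRX had no counts. TYR, TTR, DCT and STRA6 averaged at most 0.106 CPM in either group and were not tested. SLC16A8 averaged 0.157 CPM in high glucose and 0.144 CPM in normal glucose. Of 14 tested markers of this epithelium 2 rose and 2 fell, beside 13.1% higher and 12.4% lower among protein-coding loci. Their median log2 change was 0.04. Without high glucose libraries 1, 2 and 3 and normal glucose libraries 1, 2 and 3, 1, 1, 1, 1, 2 and 3 of them rose, while 0, 0, 1, 2, 2 and 2 fell. Of 4 tested blood cell markers none was called, and without normal glucose library 3 the CD68 locus, which also holds EIF4A1 and SENP3, was called higher (log2 change 0.42, edgeR adjusted p = 0.041, against 0.28 and 0.257 with it). A count of 12 in a library, 0.135 to 0.146 CPM (counts scaled to library size by TMM), was taken as the detection floor, which covers counting error only.

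Transcripts of 5 of the 9 members were lower in high than in normal glucose and none was higher, at an edgeR adjusted p under 0.05. The 5 were VEGFA, VEGFB, VEGFC, KDR and NRP1. Of all tested protein-coding loci, 25.5% were called in either direction, 12.4% lower and 13.1% higher in high glucose. Over all 25025 tested loci, 19.6% were called, 9.86% lower and 9.75% higher. The groups did not overlap for the same 5 members, and this held for 49.5% of protein-coding loci in either direction and for 23.6% in the lower direction. NRP2 was expressed and was not called. PGF, FLT1 and FLT4 lay near the floor and were not called. All 9 passed the filter on low counts. The values come from bulk RNA, so fewer expressing cells and less RNA per cell cannot be told apart.

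**Figure D1:**
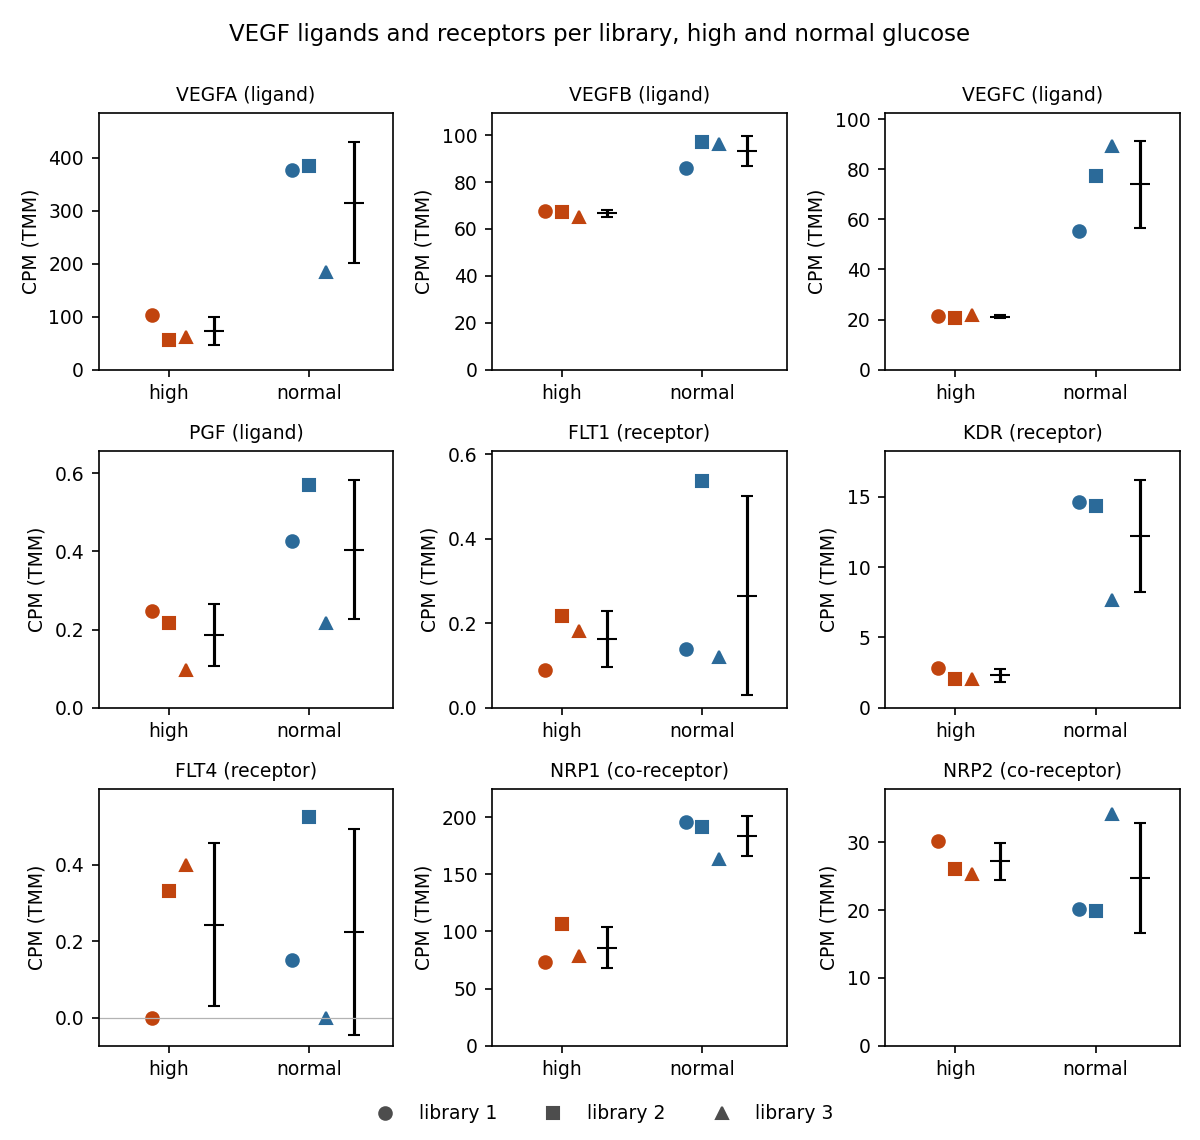
Level of each VEGF ligand, receptor and co-receptor in every library, in TMM-scaled CPM on axes of their own, for high (left, orange) and normal glucose (right, blue); marker shape gives the library number and the bar beside each group is the mean with its SD (n = 3). The high glucose libraries lie below all normal glucose libraries for VEGFA, VEGFB, VEGFC, KDR and NRP1, and the groups overlap for the other members.

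Among the ligands, VEGFA (chromosome 6, 43770184 to 43786487, plus strand) had 103 CPM, 55.6 CPM and 60.9 CPM in high glucose libraries 1, 2 and 3, and 377, 384 and 184 CPM in normal glucose libraries 1, 2 and 3. The groups did not overlap, the highest high glucose value being that of library 1 and the lowest normal glucose value that of library 3. The log2 change was -2.11 (SE 0.352; edgeR adjusted p = 0.0101), a level 0.232 times that in normal glucose. The adjusted p was 0.0505 and 0.0531 without high glucose library 2 or 3, with log2 changes of -1.94 and -1.99, and without normal glucose library 3 the log2 change was -2.38 (edgeR adjusted p = 0.00206). The VEGFA locus holds 25 annotated and 2 assembled transcripts that the table counts together, so splice forms of VEGFA, like soluble forms of FLT1 and NRP1, were not told apart.

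VEGFC (chromosome 4, 176683538 to 176792922, minus strand), the ligand of lymphatic vessel growth, had 21.4, 20.4 and 21.7 CPM in the high glucose libraries and 55.2, 77.5 and 89.3 CPM in the normal glucose libraries. The high glucose libraries were close to each other, and normal glucose library 3 was the highest of all for this gene, whereas it was the lowest of its group for VEGFA. The log2 change was -1.81 (SE 0.185; edgeR adjusted p = 0.00278) and the gene was called in all 18 alternatives, at -1.98 to -1.60.

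VEGFB (chromosome 11, 64234538 to 64238793, plus strand), a FLT1 ligand with a weak effect on vessel growth, had 67.8, 67.1 and 65.1 CPM in high glucose and 85.8, 97.2 and 96.4 CPM in normal glucose. Its fall was the smallest of the 5 called members, at a log2 change of -0.48 (SE 0.0997; edgeR adjusted p = 0.0185), and the groups did not overlap. The call ended without high glucose library 1, 2 or 3 (edgeR adjusted p = 0.0782, 0.0839 and 0.0881) and without normal glucose library 2 (0.054). PGF (chromosome 14, 74941834 to 74955626, minus strand), placental growth factor, had counts of 22, 19 and 8 in high glucose and of 37, 49 and 18 in normal glucose. The groups overlapped, and the log2 change of -1.11 had an SE of 0.594 (edgeR adjusted p = 0.236), so no difference was detectable at this depth. VEGFD, the remaining ligand of the lymphatic receptor FLT4, had at most 6 counts in any library and was not tested.

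**Figure D2:**
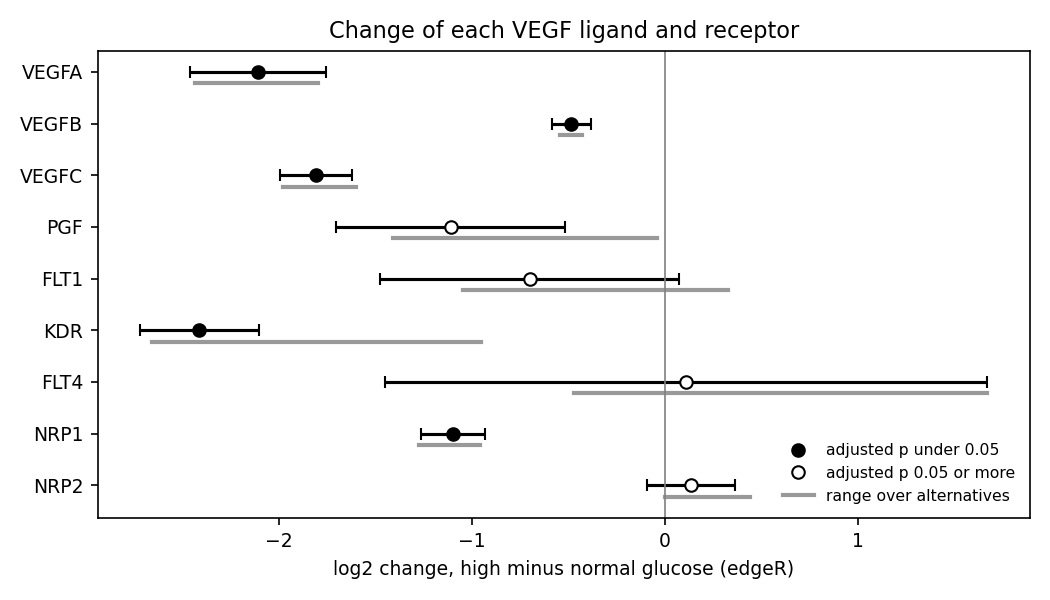
Log2 change of each member, high minus normal glucose, with its SE as the black bar; filled points have an edgeR adjusted p under 0.05, and the grey line under each spans the estimates over all alternatives. KDR, VEGFA and VEGFC have estimates of -2.41, -2.11 and -1.81, while the grey lines of FLT1 and FLT4 cross 0.

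Of the receptor kinases, only KDR was clearly above the floor. KDR (chromosome 4, 55078481 to 55125595, minus strand), the main signalling receptor for VEGFA on endothelial cells, had 2.85, 2.03 and 2.02 CPM in high glucose and 14.6, 14.4 and 7.65 CPM in normal glucose. The groups did not overlap, and normal glucose library 3 was again the lowest of its group. At a log2 change of -2.41 (SE 0.307; edgeR adjusted p = 0.00478), it fell the most of the 9 members, to 0.188 times its level in normal glucose, and 1.21% of protein-coding loci had a lower estimate. KDR was called in all 17 alternatives that measured it. Its estimate was -2.66 without normal glucose library 3, and -0.95 on log2(FPKM + 1), a scale that compresses genes of low level. FLT1 (chromosome 13, 28300346 to 28495145, minus strand), a high-affinity receptor that also acts as a decoy, had 8, 19 and 15 counts in high glucose and 12, 46 and 10 counts in normal glucose. FLT4 (chromosome 5, 180601506 to 180649624, minus strand), the receptor for VEGFC on lymphatic vessels, had 0, 29 and 33 counts in high glucose and 13, 45 and 0 counts in normal glucose. The groups overlapped for both, and neither was called. The log2 change of FLT1 was -0.70 (SE 0.775; edgeR adjusted p = 0.572), and its sign turned without normal glucose library 2. The log2 change of FLT4 was 0.11 (SE 1.56; edgeR adjusted p = 0.971), and its sign turned in 5 of 16 alternatives.

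KDR is best known from endothelial cells, so endothelial markers were read beside it. Of 15 endothelial markers in the table, 5 had no count in any library and 6 passed the filter on low counts. ROBO4 and EGFL7 were called, both lower in high glucose, beside 12.4% of protein-coding loci called lower. The other 4 were not called (edgeR adjusted p of 0.0807 to 0.185). PECAM1, VWF and ESAM had lower means in high glucose and TEK a higher one. ROBO4, a guidance receptor of vessels, had a mean of 10.8 CPM in high glucose and 22.4 CPM in normal glucose (SD 0.737 and 2.38, n = 3; edgeR adjusted p = 0.00539). The summed level of the list was 24.2 to 27.4 CPM in high glucose and 40.1 to 49.8 CPM in normal glucose, most of it from ROBO4 and EGFL7. CDH5, the cadherin that defines endothelial junctions, averaged 0.0162 and 0.0476 CPM in high and normal glucose, under the floor, and EMCN, PLVAP, SOX17, SOX18 and TAL1 had no counts. Without high glucose libraries 1, 2 and 3 and normal glucose libraries 1, 2 and 3, the endothelial markers that fell numbered 1, 1, 1, 1, 1 and 3, and 1 rose without normal glucose library 1, ROBO4 being called in all 17 alternatives. EGFL7 lost its call without any single library but normal glucose 3 (edgeR adjusted p of 0.0775 to 0.13). The part of such markers in the fall of KDR was not tested. Of the lymphatic markers, PROX1 and LYVE1 lay under the floor, whereas PDPN averaged 55.3 CPM in high glucose and 43.7 CPM in normal glucose and was not called (log2 change 0.34, edgeR adjusted p = 0.642).

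The 2 called members with the largest falls that have an entry in RefSeq's promoter table (build GRCh38.p14) are KDR and VEGFC. Their 250 bases before the annotated start are shown to let a reader see the promoters of a receptor and a ligand that both fell. They are on the minus strand at chr4:55125596-55125845 and chr4:176792923-176793172, and capitals mark the GC box GGGCGG or its complement CCGCCC, a site type bound by SP1 and SP3.
KDR: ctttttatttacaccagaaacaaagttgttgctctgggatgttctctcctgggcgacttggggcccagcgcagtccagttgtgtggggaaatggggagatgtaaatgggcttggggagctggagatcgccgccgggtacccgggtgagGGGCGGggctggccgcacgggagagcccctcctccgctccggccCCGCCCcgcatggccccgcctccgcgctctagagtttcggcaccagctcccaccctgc
VEGFC: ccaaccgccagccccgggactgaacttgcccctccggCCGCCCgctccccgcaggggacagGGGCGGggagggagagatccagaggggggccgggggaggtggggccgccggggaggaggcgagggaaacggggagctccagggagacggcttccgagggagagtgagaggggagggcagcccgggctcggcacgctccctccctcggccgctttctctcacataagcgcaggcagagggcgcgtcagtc
Each held the GC box at 2 places, and 42.6% of the 35116 RefSeq windows of the same length held it at least once on either strand. The core of the hypoxia response element, ACGTG, and the amino acid response motif TGATGNAA were found in neither on either strand, and 18.5% and 3.14% of all windows held them. A match is a description of letters only. Of the 9 members, 6 matched the table. The GC box was also in the windows of VEGFB (6 places) and of the uncalled NRP2 (3) and FLT1 (3). The uncalled PGF had entries with 3 and with 2, so the box was not particular to members that fell.

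Of the neuropilins, NRP1 fell and NRP2 was not called. NRP1 (chromosome 10, 33177492 to 33336262, minus strand), which binds VEGFA and SEMA3A, had 73.2, 106 and 78.2 CPM in high glucose and 195, 191 and 163 CPM in normal glucose. The groups did not overlap, and the log2 change was -1.09 (SE 0.166; edgeR adjusted p = 0.00761), with a call in all 18 alternatives. NRP2 (chromosome 2, 205681990 to 205798133, plus strand), which binds VEGFC and SEMA3F, had 30.3, 26.1 and 25.3 CPM in high glucose and 20.1, 19.9 and 34.1 CPM in normal glucose. The high glucose values lay between normal glucose library 3 and the other two, and the log2 change of 0.14 was not called (SE 0.23; edgeR adjusted p = 0.719). Without normal glucose library 3 the change was 0.44 and was called (edgeR adjusted p = 0.0397). NRP1 made up 74.5%, 83.1% and 78.9% of the summed neuropilin FPKM in high glucose and 92.1%, 92.1% and 85.2% in normal glucose. The groups did not overlap, with a difference of -11 percentage points, and the exact permutation test gave p = 0.1, the smallest that 3 against 3 libraries allow (2-sided).

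On the per-length scale (FPKM, fragments scaled by gene length and library size, as deposited), the means of the members were ordered as follows. In high glucose VEGFB was highest at 26.1 ± 0.722 FPKM, then VEGFC at 6.67 ± 0.228, NRP1 at 6.13 ± 1.24, VEGFA at 4 ± 1.46, NRP2 at 1.61 ± 0.172 and KDR at 0.298 ± 0.0648 FPKM (SD, n = 3). In normal glucose VEGFB was at 35.4 ± 2.38 FPKM, VEGFC at 22.7 ± 5.23, VEGFA at 16.7 ± 6.09, NRP1 at 12.7 ± 1.28, KDR at 1.54 ± 0.504 and NRP2 at 1.42 ± 0.461 FPKM (SD, n = 3). VEGFC and NRP1 and also NRP1 and VEGFA in high glucose, and in normal glucose VEGFC and VEGFA, VEGFA and NRP1, and KDR and NRP2, did not differ beyond their spread. PGF, FLT1 and FLT4 stayed below 0.1 FPKM in every library. These orders rest on the lengths behind the deposited FPKM. The length implied by count, FPKM and library total was 18.6 kb for VEGFA, more than the 16.3 kb its locus spans, against 2.59 kb for VEGFB, so the level of VEGFA relative to other genes is uncertain, whereas the same length enters both media.

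**Figure D3:**
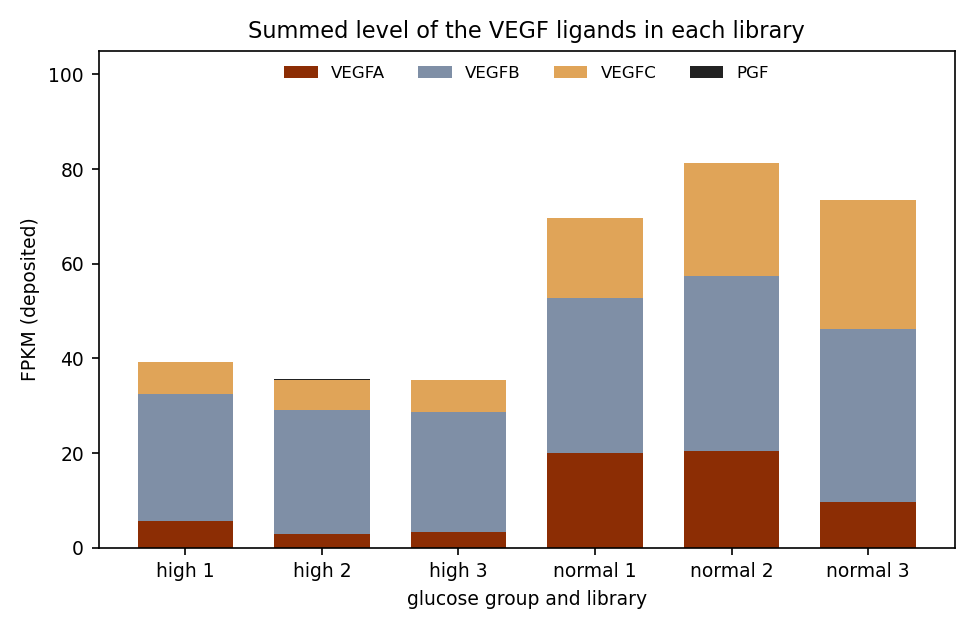
Deposited FPKM of the 4 VEGF ligands stacked for each library, high glucose on the left and normal glucose on the right. The stacks reach 35.4 to 39.2 FPKM in high glucose and 69.7 to 81.4 FPKM in normal glucose, VEGFB is the largest block in every library on this scale, and PGF is too small to see; by counts VEGFA exceeded VEGFB in all normal glucose libraries.

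Sums over the ligands, and their ratio, depend on the FPKM lengths, since VEGFA fell more than VEGFB and weighs more by counts. The summed ligand level was 36.7 ± 2.17 FPKM in high glucose and 74.8 ± 5.95 FPKM in normal glucose (SD, n = 3), a ratio of 0.491. VEGFB made up 68.1%, 73.4% and 71.4% of that sum in high glucose and 46.9%, 45.5% and 49.7% in normal glucose, without overlap (exact permutation p = 0.1, 2-sided). Counts are not divided by length, so longer transcripts weigh more in them. By counts VEGFB made up 35.2%, 46.8% and 44.0% in high glucose and 16.6%, 17.4% and 26.1% in normal glucose (exact permutation p = 0.1, 2-sided). On that scale VEGFA made up 53.5%, 38.8% and 41.2% in high glucose and 72.7%, 68.7% and 49.7% in normal glucose (means 44.5% and 63.7%). The groups overlapped, since high glucose library 1 lay above normal glucose library 3 (exact permutation p = 0.2, 2-sided). By counts VEGFA exceeded VEGFB in high glucose library 1 and in all normal glucose libraries, so which ligand is largest depends on the scale. By FPKM the share of VEGFA was 14.4%, 8.48% and 9.33% in high glucose and 28.7%, 25.1% and 13.2% in normal glucose. Here too the groups overlapped, since normal glucose library 3 lay below high glucose library 1 (exact permutation p = 0.2, 2-sided). The summed receptor kinase level, nearly all of it KDR, was 0.209 times as high in high as in normal glucose.

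Genes known to control VEGFA transcription, activators and inhibitors together, were mostly lower where they were called. Of 23 tested, 10 fell and 2 rose in high glucose, beside 12.4% lower and 13.1% higher among protein-coding loci. The median log2 change was -0.43, against 0.01 over all protein-coding loci. EPAS1, the hypoxia factor HIF-2 alpha, had means of 280 CPM in high glucose and 563 CPM in normal glucose (log2 change -1.01, SE 0.108; edgeR adjusted p = 0.00307). ATF4, the effector of the integrated stress response and a known activator of VEGFA, fell by 1.09 (edgeR adjusted p = 0.0061), and PPARGC1A, a coactivator that induces VEGFA independently of hypoxia factors in muscle, fell by 1.71 on the log2 scale (edgeR adjusted p = 0.00617). SP3, a GC box factor, fell by 0.63, a call lost when high glucose library 3 was left out (edgeR adjusted p = 0.0519). SP1, the other GC box factor of the list, had means of 128 CPM in high glucose and 129 CPM in normal glucose (edgeR adjusted p = 0.953). HIF1A, in a locus shared with SNAPC1 and a clone-named gene, had means of 1366 CPM in high glucose and 1369 CPM in normal glucose (edgeR adjusted p = 0.994). The numbers that fell were 5, 4 and 3 without high glucose libraries 1, 2 and 3, and 6, 6 and 13 without normal glucose libraries 1, 2 and 3. The numbers that rose were 0 without each library but normal glucose 3, without which 4 rose.

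VEGFA is a known target of hypoxia factors and of the unfolded protein response. Of 26 hypoxia targets other than VEGFA, 8 rose and 2 fell, beside 13.1% higher and 12.4% lower among protein-coding loci, with a median log2 change of 0.23. CA9, a carbonic anhydrase, had means of 72.9 CPM in high glucose and 5.41 CPM in normal glucose (log2 change 3.75, SE 0.132; edgeR adjusted p = 1.55e-04), and CA12, a related enzyme, rose by 2.20. PGK1, a glycolytic enzyme in a locus with ATP7A, rose by 0.90 (edgeR adjusted p = 0.00752). NDRG1, another target, fell by 1.51 (edgeR adjusted p = 0.00607). Of 27 unfolded protein response and ATF4 genes, 25 fell and none rose, with a median of -2.33. ATF4 and XBP1 are among those that fell and are counted in the list of VEGFA control genes too. The fall of the stress genes was known from earlier results of these data and is no independent support. PSAT1 and PHGDH, enzymes of serine synthesis, and CHAC1, which degrades glutathione, fell by 2.89, 2.63 and 4.26 on the log2 scale. ASNS, asparagine synthetase, in a locus with other named genes, fell by 1.97 on the same scale. The stress genes that fell numbered 9, 8 and 8 without high glucose libraries 1, 2 and 3, and 15, 17 and 27 without normal glucose libraries 1, 2 and 3. The hypoxia targets that rose numbered 4, 3, 3, 5, 6 and 11 in that order of omission, and those that fell 1, 1, 1, 1, 1 and 8.

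**Figure D4:**
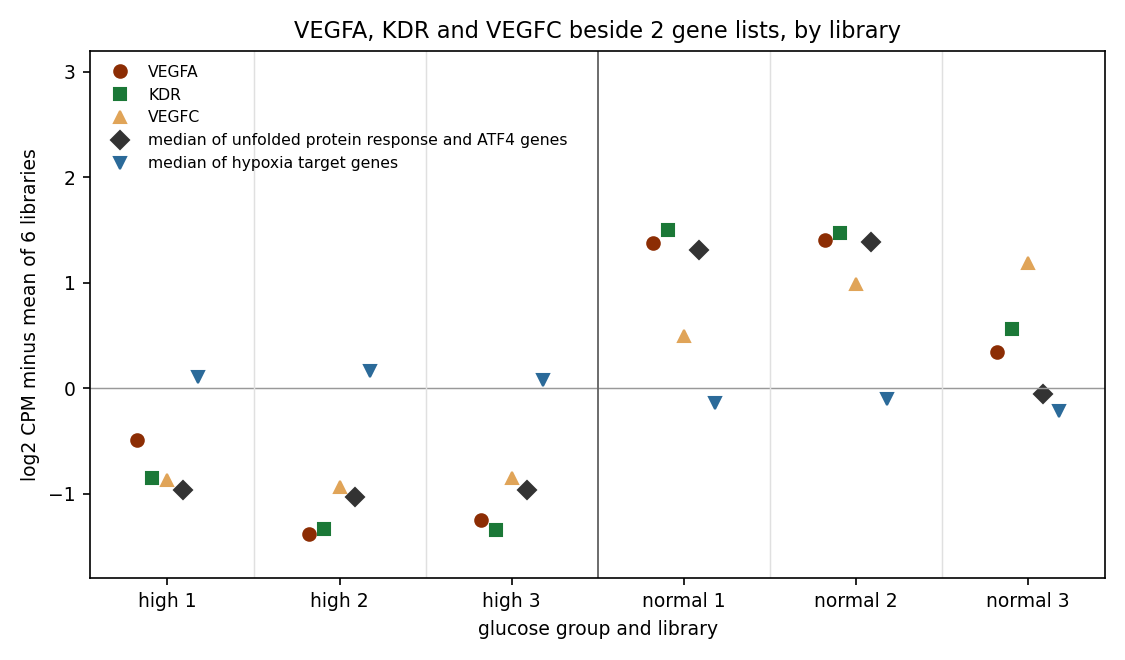
Log2 CPM of VEGFA, KDR and VEGFC minus each gene's mean over the 6 libraries, beside the median of the same measure over 27 unfolded protein response and ATF4 genes and 26 hypoxia targets. VEGFA, KDR and the stress list are lower in normal glucose 3 than in normal glucose 1 and 2, while VEGFC is highest there.

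Within normal glucose, VEGFA, KDR and the stress list were lowest in library 3, and VEGFC was highest there. VEGFA stood 1.38, 1.40 and 0.34 above its mean over the 6 libraries in normal glucose libraries 1, 2 and 3 (log2 CPM), KDR 1.5, 1.47 and 0.57 above its own, and the stress list's median was 1.31, 1.39 and -0.06. VEGFC stood 0.50, 0.98 and 1.19 above its mean in the same libraries. Within high glucose the stress list was between -1.03 and -0.96, while VEGFA was at -0.49, -1.38 and -1.25 in libraries 1, 2 and 3. The part of the stress list in the fall of VEGFA was not tested.

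Among 16 genes that act on the stability or splicing of VEGFA messenger RNA, 2 rose and 3 fell, with a median of 0.03. Among protein-coding loci 13.1% were called higher and 12.4% lower. ZFP36L1, a protein that promotes decay of messenger RNAs with AU-rich elements, VEGFA among them, had means of 423 CPM in high glucose and 149 CPM in normal glucose (log2 change 1.51, SE 0.218; edgeR adjusted p = 0.00673). Its relative ZFP36L2 rose by 0.47 (edgeR adjusted p = 0.0399), with adjusted p of 0.0636 to 0.134 without any single library but normal glucose 3. CLK1, a kinase of splicing factors, fell by 0.69. CLK1 was not called without high glucose library 1 or 3 (edgeR adjusted p = 0.0521 and 0.0524). SRSF6, a splicing factor in a locus with L3MBTL1 and SGK2, fell by 0.72, with no call once high glucose library 2 or 3 was left out (edgeR adjusted p = 0.0657 and 0.0677). Without high glucose libraries 1, 2 and 3 and normal glucose libraries 1, 2 and 3, the numbers that rose were 1, 1, 1, 1, 1 and 6 and those that fell 1, 1, 0, 2, 2 and 3.

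**Figure D5:**
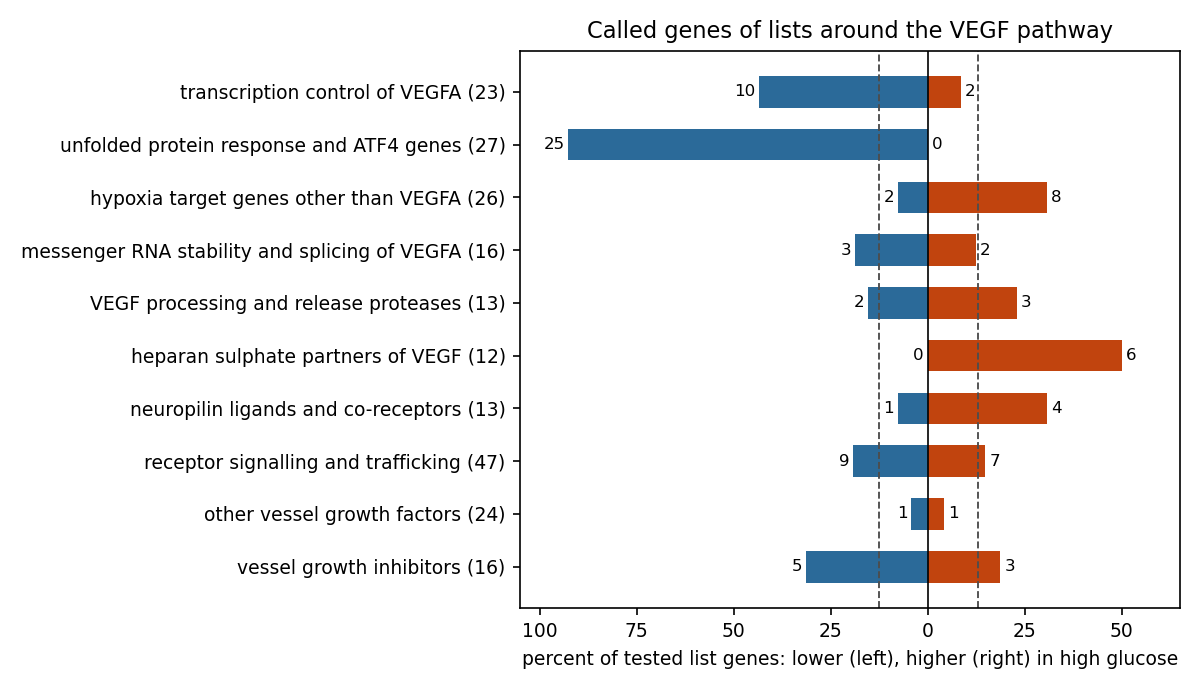
Share of the tested genes of each list called lower (left, blue) or higher (right, orange) in high glucose, with the number of genes at the bar's end and the number tested in brackets; dashed lines give the shares over all protein-coding loci. The stress list reaches 25 of 27 on the left, and the heparan sulphate list 6 of 12 on the right.

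Partners that bind VEGF or the neuropilins outside the cell were read next. Of 12 heparan sulphate carriers and enzymes, which hold VEGF at the cell surface and in matrix, 6 rose and none fell, beside 13.1% higher among protein-coding loci, with a median of 0.50. SDC4, a syndecan, had means of 418 CPM in high glucose and 128 CPM in normal glucose (log2 change 1.71, SE 0.137; edgeR adjusted p = 0.00165), and SDC3, another syndecan, rose by 1.04. NDST1, an enzyme that sulphates the chains, rose by 1.0, with a call lost without high glucose library 1 or 2 or normal glucose library 1 or 2 (edgeR adjusted p of 0.0703 to 0.0849). SULF2, which removes sulphates, rose by 0.68, and its adjusted p was 0.0538 without high glucose library 2. The list's risen genes numbered 3, 2 and 5 without high glucose libraries 1, 2 and 3, and 3, 3 and 6 without normal glucose libraries 1, 2 and 3, and 1 fell without normal glucose library 3. Of 13 tested semaphorins, plexins and other neuropilin partners, 4 rose and 1 fell, beside 13.1% higher and 12.4% lower among protein-coding loci. Their median was 0.26. SEMA3A, a semaphorin that competes with VEGFA for NRP1, had 8.84, 10.1 and 10 CPM in high glucose and 4.6, 3.44 and 2.83 CPM in normal glucose (log2 change 1.41, SE 0.22; edgeR adjusted p = 0.00816), with a call in all 16 alternatives. SEMA3C, SEMA3D and SEMA3E rose by 0.72, 0.84 and 0.99. Each of these 3 lost its call without any single high glucose library and without normal glucose library 1 (edgeR adjusted p of 0.0562 to 0.12). The list's risen genes numbered 1, 1, 1, 1, 3 and 5 in that order of omission, and 0, 0, 0, 0, 1 and 1 fell.

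Of 13 tested proteases that process or release VEGF, 3 rose and 2 fell, beside 13.1% higher and 12.4% lower among protein-coding loci. ADAMTS1, a secreted protease that binds VEGFA and limits vessel growth, had 85.6, 86.6 and 76.7 CPM in high glucose and 548, 526 and 260 CPM in normal glucose (log2 change -2.42, SE 0.28; edgeR adjusted p = 0.00362). Normal glucose library 3 was the lowest of its group here too. MMP14, a membrane protease, rose by 0.84, and MMP3, which cleaves matrix-bound VEGFA, by 1.71 on the log2 scale. The call of MMP3 was lost without high glucose library 1, 2 or 3 (edgeR adjusted p = 0.0563, 0.0502 and 0.0599). CTSD, a lysosomal protease in a locus with IFITM10, fell by 0.62 and lost its call without each high glucose library (edgeR adjusted p of 0.0993 to 0.109) and without normal glucose library 2 (0.0765). The proteases that rose numbered 1, 1 and 1, and 2, 2 and 3, and those that fell 1, 1 and 1, and 2, 1 and 2, in that order of omission. CCBE1 and ADAMTS3, which act together to mature VEGFC, had log2 changes of 0.15 (edgeR adjusted p = 0.626) and 1.07 (edgeR adjusted p = 0.0405), both chosen after their values were seen. ADAMTS3 was not called without high glucose library 1, 2 or 3, where MMP14 was the 1 protease called higher.

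Of 47 tested genes of receptor signalling and trafficking, 7 rose and 9 fell, with a median of 0.05. Among protein-coding loci 13.1% were called higher and 12.4% lower. RCAN1, a calcineurin inhibitor that VEGFA induces in endothelial cells, had 81.7, 85 and 103 CPM in high glucose and 356, 539 and 510 CPM in normal glucose (log2 change -2.38, SE 0.188; edgeR adjusted p = 0.00164). SPHK1, a lipid kinase downstream of KDR, fell by 1.34. PTPN1, a phosphatase that acts on KDR, rose by 1.27, and HSPB1, a small heat shock protein phosphorylated downstream of the receptor, by 0.92. NOS3, the endothelial nitric oxide synthase, had a mean of 0.0938 CPM in high glucose and no counts in normal glucose, and was not tested. The signalling genes that rose numbered 4, 4 and 3 without high glucose libraries 1, 2 and 3 and 6, 6 and 13 without normal glucose libraries 1, 2 and 3. Those that fell numbered 4, 4 and 4, and 5, 5 and 10.

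Other vessel growth factors showed few calls, with 1 of 24 higher and 1 lower, beside 13.1% higher and 12.4% lower among protein-coding loci. ANGPTL4, a lipase inhibitor that also acts on vessels, rose by 3.59 (edgeR adjusted p = 0.00148), and ANGPT2, a TEK ligand, fell by 1.17 at a mean of 0.8 CPM in high glucose and 1.8 CPM in normal glucose (edgeR adjusted p = 0.0287). ANGPT2 was not called without any single library but normal glucose 3 (edgeR adjusted p of 0.0719 to 0.108). Without normal glucose library 3, 5 of these growth factors rose and 5 fell, and without any other single library 1 rose and 0 fell. Of 16 inhibitors of vessel growth, 3 rose and 5 fell. Among these calls, ADAMTS1 and SEMA3B, which fell, and SEMA3A, which rose, are counted in the protease or neuropilin partner lists too. THBS1, a matrix protein that blocks KDR signalling, had means of 554 CPM in high glucose and 295 CPM in normal glucose (log2 change 0.91; edgeR adjusted p = 0.00968; 0.0502 without high glucose library 2). TIMP3, a protease inhibitor that blocks VEGFA binding to KDR, had means of 859 and 1477 CPM in high and normal glucose (log2 change -0.78; edgeR adjusted p = 0.00358). SERPINF1, pigment epithelium-derived factor, averaged 5.67 CPM in high glucose and 7.08 CPM in normal glucose (SD 0.722 and 0.54, n = 3) and was not called (edgeR adjusted p = 0.239). The inhibitors that fell numbered 2, 2 and 2 without high glucose libraries 1, 2 and 3, and 3, 4 and 6 without normal glucose libraries 1, 2 and 3, and those that rose 3, 2 and 2, and 3, 3 and 3.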

How the data were processed

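RNA from ARPE-19 cells was measured as poly(A)-selected, paired-end RNA-seq libraries, 3 per medium. The authors deposited 1 table of counts and FPKM for 60835 loci, per the file headers, with locus names made by transcript assembly. Bowtie 0.12.2 and mm8, a mouse build, stand in the submitters' processing notes, although the table holds human gene names, and its KDR and VEGFC loci abut the RefSeq promoter windows of GRCh38.p14, the build taken for its coordinates. Nothing states that counting used strand, so reads of antisense genes cannot be told apart. The most frequent low count was 4, found 9555 times against 4210 for 3 and 2659 for 5, so the counts may not be single fragments and 12 counts (3 times 4) were taken as the floor.

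From the deposited counts, after 37 mitochondrial loci were left out, edgeR 4.0.16 in R 4.3.3 kept 25025 loci (filterByExpr), scaled them by TMM and ran the quasi-likelihood test, with Benjamini-Hochberg adjustment over all of them and a threshold of 0.05. The SE is the log2 change divided by the root of the F statistic. The 6 libraries held 81616741 to 87748820 counts, and the root of the common dispersion was 34.8%. Deposited FPKM values served for levels between genes, implied lengths and shares (exact permutation over 20 splits). They also served for an alternative filter at 1 FPKM in 3 libraries and for limma 3.58.1 alternatives with pseudocounts of 1 and 0.1. DESeq2 1.42.0, other scalings and filters, counts divided by 4, omission of each library and a block on the replicate number were alternatives.

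The members and the gene lists were chosen with earlier results of these data known. Named were all 9 members, in each list up to 4 called genes of smallest adjusted p (the most abundant one where none was called), and for each called member the 3 protein-coding loci of highest Pearson r. HIF1A, XBP1, OTX2, MITF, NOS3, SERPINF1, CCBE1, ADAMTS3 and the markers under the floor are outside this rule and were chosen after their values were seen. The same holds for PMEL, LRAT, RLBP1, RDH5, TTR, STRA6, SLC16A8, PECAM1, VWF, ESAM, TEK, SP1 and SEMA3B.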

Additional observations from a re-analysis of the deposited data

How the results depend on the processing

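VEGFC, NRP1 and KDR were called lower in every alternative that measured them (18, 18 and 17). With the replicate block, edgeR called 2545 loci (1312 higher and 1233 lower in high glucose) against 4906 (2439 and 2467) without it, 63 against 95 genes of the pathway lists, and lost VEGFB (adjusted p = 0.0695). Same-numbered libraries did not deviate together (r of -0.017, -0.0008 and -0.0094 across loci). With 3 libraries per group this cannot settle whether same-numbered libraries were set up together, and the labels do not state it. With 1 library left out, edgeR called 1421 to 7615 loci (730 to 3932 higher, 691 to 3683 lower), 3 to 6 of the 9 members and 35 to 136 list genes. The difference in VEGFA share was -16.2 to -8.40 percentage points, and that in NRP1 share -13.3 to -8.80. By counts in place of FPKM the VEGFA share differed by -19.2 points, and the groups overlapped on both scales. FLT1 ranged from -1.05 to 0.33 with 1 library left out, turning positive without normal glucose library 2, and FLT4 from -0.47 to 1.67. FLT4 turned to -0.16 with the block, -0.17 and -0.44 without high glucose libraries 2 and 3, and -0.11 and -0.47 without normal glucose libraries 1 and 3. A filter at 1 FPKM left KDR, PGF, FLT1 and FLT4 untested, and counts divided by 4 gave no value for PGF, FLT1 and FLT4. The cause of these shifts was not tested.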

Other observations

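Over the 6 libraries, the tested protein-coding loci most like each called member on log2 CPM were found by Pearson r among 11940 loci with a single gene name, as a description in which the 2 media and the shared libraries set much of r. VEGFA was closest to AZI2 (0.9997), PPP4R3A (0.996) and PKP2 (0.994). KDR was closest to ATE1 (0.999), WDR19 (0.999) and ADM2 (0.997). ADM2, a peptide hormone of the calcitonin family, averaged 1.34 CPM in high glucose and 24.1 CPM in normal glucose (log2 change -4.17, edgeR adjusted p = 0.00483). VEGFC was closest to RFWD3 (0.999), AKR1C2 (0.998) and SOCS4 (0.998), of which AKR1C2 had no counts in high glucose and a mean of 0.486 CPM in normal glucose. VEGFB was closest to TRAPPC10 (0.999), TMEM47 (0.999) and RANBP9 (0.998), and NRP1 to SLC25A33 (0.991), ASGR1 (0.991) and UBQLN1 (0.990). Of the epithelial markers, the keratin KRT18 averaged 898 CPM in high glucose and 245 CPM in normal glucose (log2 change 1.88, edgeR adjusted p = 0.00636), and the chloride channel BEST1 averaged 2.02 CPM in high glucose and 9.30 CPM in normal glucose (log2 change -2.20, edgeR adjusted p = 0.0113; 0.0551 and 0.0545 without high glucose libraries 1 and 2). The keratin KRT8 rose by 1.66 on the log2 scale (edgeR adjusted p = 0.0152) but lost its call without any high glucose library and without normal glucose library 1 (0.0531 to 0.0602). MERTK, a receptor for the uptake of photoreceptor outer segments, averaged 4.19 CPM in high glucose and 9.81 CPM in normal glucose (log2 change -1.23, edgeR adjusted p = 0.0191; 0.0696 to 0.0833 without any 1 high glucose library).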
